A study of Arabidopsis thaliana with 18 samples.

Results

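The first 2 h of light after 4 days of darkness were examined in wild-type Arabidopsis thaliana seedlings of accession Col-0. The comparison rests on 5 of the 18 Affymetrix ATH1 arrays of the series, chosen by genotype and light time in their titles. They are 2 arrays of seedlings given 2 h of light after the 4 days of darkness, and 3 arrays of seedlings taken straight from darkness. No array holds seedlings kept in darkness for the extra 2 h. Light and elapsed time therefore cannot be told apart, for clock genes as for others. Whole seedlings were used, grown on MS medium of reduced strength without sucrose. The other 13 arrays hold wild type at 4 and 8 h of light and jmj17-1, a mutant of a histone demethylase gene in the same Col-0 background, at all 4 times. They entered here through the shared estimate of spread, a comparison with the next 2 h, and a test of whether the mutant responded differently. The labels do not say whether replicates came from separate cultures, so p-values measure the spread between these arrays, which may be technical, and the number of arrays limits the precision.

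A seedling that germinates in darkness grows by skotomorphogenesis, with a long hypocotyl, closed cotyledons and etioplasts that hold protochlorophyllide but no chlorophyll. Light is read by phytochromes, cryptochromes and phototropins. Active phytochromes remove the PIF transcription factors and restrain the COP1/SPA ubiquitin ligase, so that HY5 and other light-response regulators accumulate, hypocotyl growth slows and chloroplasts form. Photoprotection belongs to this transition, because free chlorophyll precursors in light produce singlet oxygen.

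The deposited table lists 6847 of the 22810 probe sets of the array, of which 6514 name 1 locus, and only those are named here. Values are RMA intensities in arbitrary units, compared on the log2 scale. Across probe sets the 2 arrays at 2 h of light correlated at 0.993 and the dark arrays at 0.996 to 0.997, while light and dark arrays correlated at 0.845 to 0.855. Median intensity was 159 and 161 on the 2 h arrays and ran between 144 and 148 on the dark arrays. A second deposited file labels its columns differently. In it 16 of the 18 columns equal an array that carries another title in the table used here, so the directions below rest on the titles in the table. Seedlings were measured in bulk, so fewer cells of a type and less RNA per cell cannot be told apart. The fold of a gene near the lower end of the intensity range is uncertain, since no array background was at hand.

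After 2 h of light, 2772 probe sets (40.5%) were higher and 3354 (49.0%) lower than in the dark at an adjusted p under 0.05 (limma, two-sided, Benjamini-Hochberg over 6847 probe sets), called passing below. Among the 89.5% of probe sets that passed, the large changes were mostly increases. At least 2-fold, 1249 probe sets (18.2%) were higher and 526 (7.68%) lower, at least 8-fold 101 and 9, and at least 16-fold 27 and 1. The split moved when the 6847 listed probe sets were rescaled on their own. Per the file headers the deposited values already carried quantile normalization. Rescaling the list alone gives its arrays equal medians by construction, so it does not test the deposited scale. Quantile normalization moved log2 differences by a median of -0.14, which left 1056 probe sets at least 2-fold higher and 736 lower, and median centring left 1053 and 726. Increases made up 70.4% of the 2-fold calls as deposited, 58.9% after quantile normalization and 59.2% after centring. The median log2 difference over the table was -0.21, and arrays of the light and dark groups did not overlap for 6383 probe sets (93.2%).

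The list is not a random sample of the array. In the mutant, all of its probe sets differed between 2 h of light and dark with an unadjusted p of at most 0.0237 (limma), and 9.81% of those left out had one under 0.05. Over all 22810 probe sets of the array, matched from the second file, 37.4% passed in wild type and the median log2 difference was 0.01. A count of passing members in a gene list is therefore set below against 40.5% higher and 49.0% lower. Where a 2-fold change was also asked, it is set against 18.2% and 7.68%. Genes called measured have a probe set of 1 locus in the deposited list, such as 14 of 22 antenna genes. Genes left out of the deposited list are not counted, so a full count does not speak for them. The gene lists were chosen with earlier results of these data known, so their counts are a description only.

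**Figure D1:**
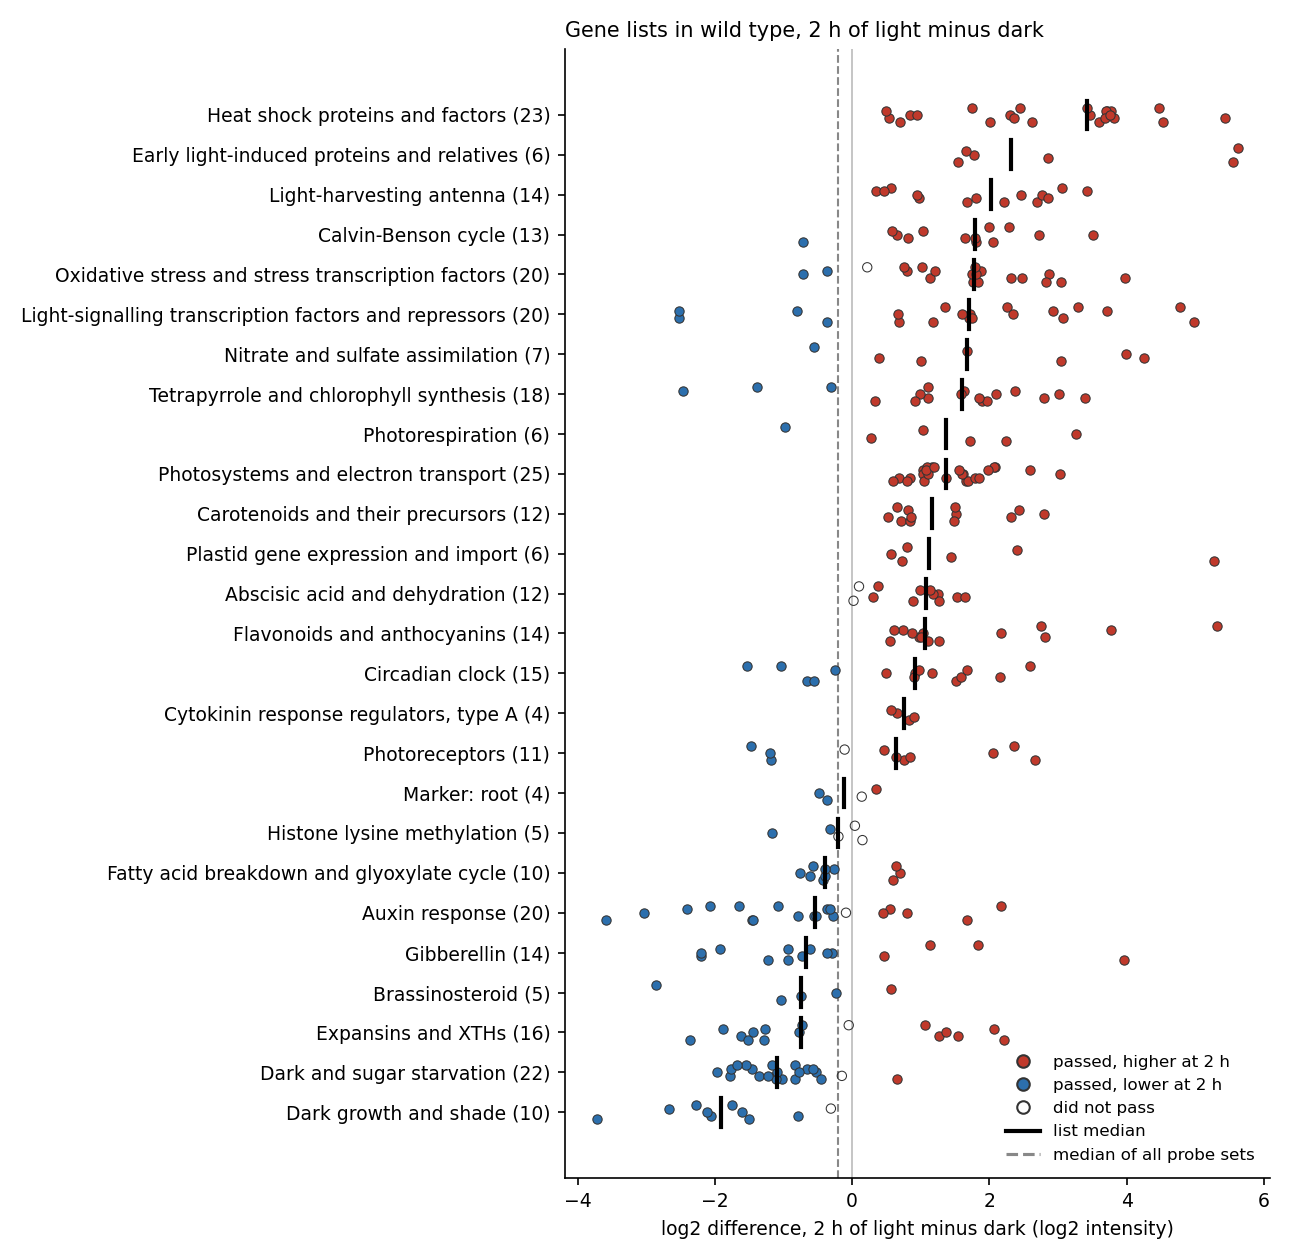
Log2 difference in wild type, 2 h of light minus dark, for the measured genes of 26 gene lists, with the number of genes in brackets. Each point is 1 gene, red where it passed and was higher, blue where it passed and was lower, open where it did not pass. The black bar is the list median and the dashed line the median of all probe sets (-0.21). Heat shock genes lie farthest right (median 3.42) and dark growth and shade genes farthest left (-1.91).

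Photoreceptor genes did not move as one group. Of 11 measured photoreceptor and partner genes, 7 were higher and 3 lower. PHYA encodes phytochrome A, the light-labile phytochrome that accumulates in darkness. It had intensities of 1627 and 1326 at 2 h of light, against 3120, 3623 and 3424 in the dark. The groups did not overlap, and PHYA fell 2.30-fold (log2 difference -1.20 ± 0.11, SE from limma here and below, adjusted p = 9.35e-08). FHL, which helps carry phytochrome A into the nucleus, fell by 1.47 on the log2 scale, with 61.2 and 53.7 at 2 h and 151 to 167 in the dark. The light-stable phytochromes PHYB, PHYD and PHYE rose by 0.47, 0.75 and 0.85, while PHYC differed by -0.11 and did not pass. The phototropins, blue-light receptors for directional growth, moved in opposite directions. PHOT1 had 255 and 254 at 2 h, against 588, 626 and 518 in the dark, and fell 2.26-fold. PHOT2, the phototropin of stronger light, had 600 and 640 at 2 h, against 158, 140 and 149 in the dark, and rose 4.16-fold. The phototropin partner RPT2 rose 6.38-fold, to 4191 and 3616 at 2 h, against 560 to 646 in the dark, and the phytochrome substrate PKS1 rose 5.13-fold.

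Transcription factors and repressors of light signalling rose in 16 of 20 measured genes, 14 of them at least 2-fold, and fell in 4. Their median log2 difference was 1.71. HY5, the bZIP factor that promotes photomorphogenesis, had 734 and 952 at 2 h, against 160, 191 and 174 in the dark, a 4.79-fold rise (log2 2.26 ± 0.14). Its close homolog HYH had 407 and 433 at 2 h, against 10.8, 19 and 17.5 in the dark. HYH rose by 4.78 ± 0.36 on the log2 scale, with light arrays above the array median and a dark mean among the dimmest 5% of probe sets. B-box proteins, which bind or modulate HY5, changed in both directions. BBX25 had 841 and 867 at 2 h, against 27.5, 29 and 24.4 in the dark, and rose 31.7-fold (adjusted p = 1.25e-13). BBX22 rose 9.77-fold, BBX31 7.60-fold and BBX24 3.35-fold. BBX20 instead fell 5.72-fold, to 71.2 and 51.4 at 2 h, against 329 to 365 in the dark, and BBX21 fell 1.74-fold.

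Genes of the repressive side of the pathway also rose. SPA1, a partner of the COP1 ligase, had 627 and 649 at 2 h, against 79.7, 71.7 and 77.0 in the dark. It rose 8.39-fold with one of the 10 smallest adjusted p-values of the table (2.95e-13). SPA4 rose 3.03-fold and COP1 itself 2.55-fold, with 414 and 381 at 2 h and 151 to 165 in the dark. RUP2, a repressor of the UV-B receptor, had 1175 and 1276 at 2 h, against 106, 90.7 and 84.8 in the dark, a 13.1-fold rise, and RUP1 rose 3.24-fold. PIF3 and PIF5, bHLH factors that maintain dark growth, rose by 0.67 and 0.68. GATA2, a GATA factor known to promote photomorphogenesis, fell 5.76-fold, with 61.6 and 58.3 at 2 h and 343 to 346 in the dark. The chloroplast regulators GLK2 (3.29-fold), GNC (2.27-fold) and CGA1 (5.09-fold) rose. HFR1, a bHLH protein that inhibits PIFs, differed by -0.37, which passed with both 2 h arrays but not without replicate 1 at 2 h (-0.18).

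**Figure D2:**
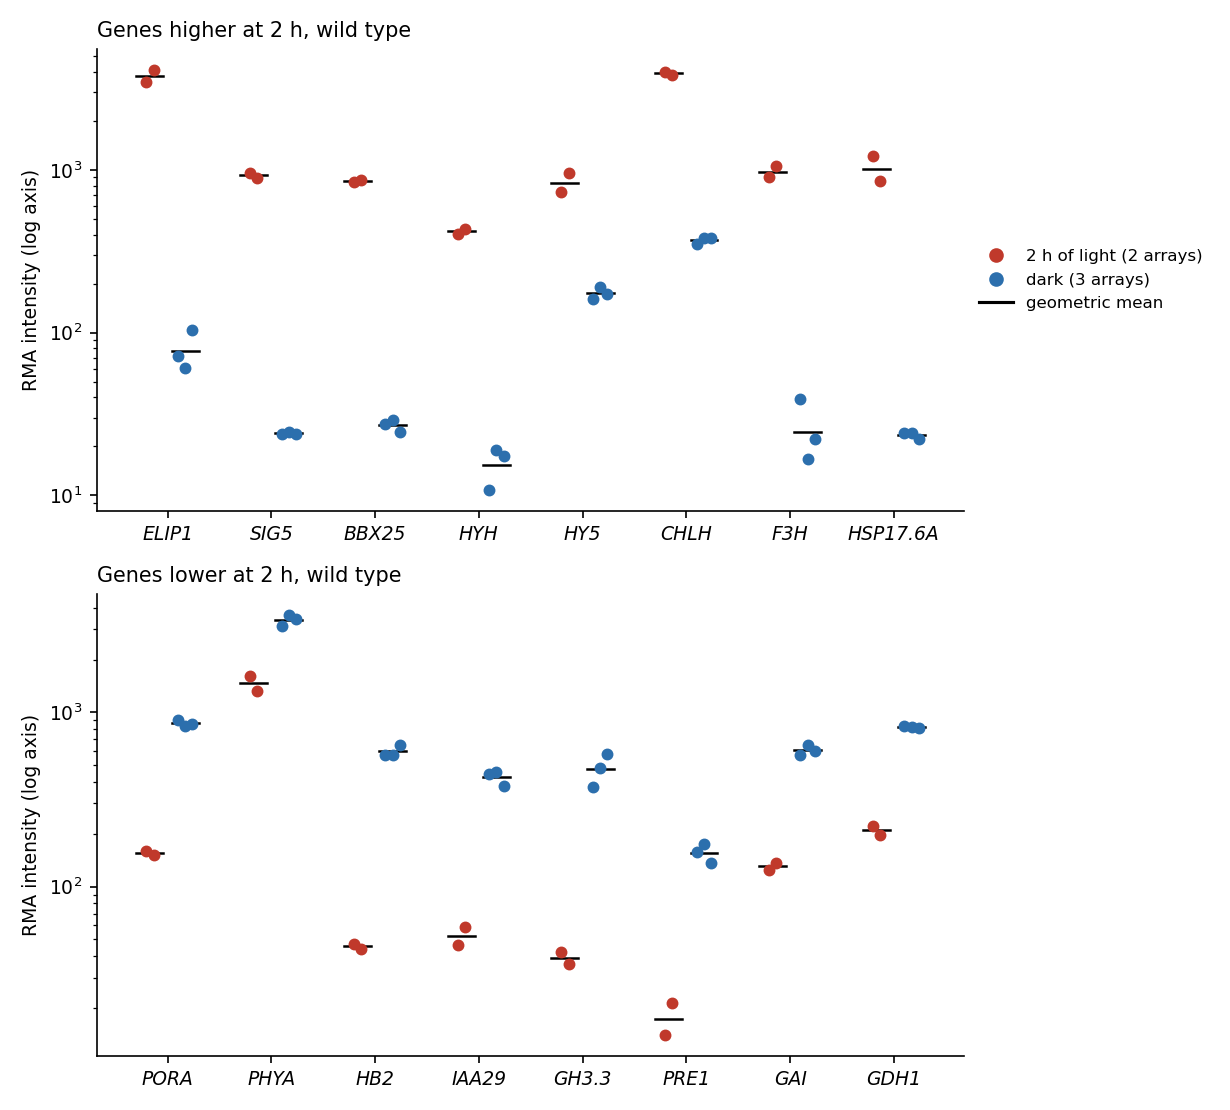
RMA intensity (log axis) of 16 genes on each array of wild type, with the 2 arrays at 2 h of light in red to the left of the 3 dark arrays in blue, and geometric means as black bars. The light and dark arrays do not overlap for any gene shown, which holds for 93.2% of all probe sets too. SIG5 has 964 and 890 at 2 h against 23.7 to 24.6 in the dark, and HB2 has 46.8 and 44 against 569 to 654.

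Early light-induced protein genes had the largest rises of the table. ELIPs are thylakoid proteins related to the antenna that bind pigments during greening and light stress. ELIP1 had 3476 and 4108 at 2 h of light, against 72.2, 60.2 and 104 in the dark, and rose 49.2-fold (log2 5.62 ± 0.50, adjusted p = 8.02e-08). ELIP2 had 5522 and 5857 at 2 h, against 106, 84.4 and 201 in the dark, and rose 46.8-fold. Both have a wide error, and their dark arrays differ. The error comes from the spread within all groups of the fit, not from the arrays compared here alone. The source of its width was not tested. The light arrays lay far above every dark array. The smaller relatives OHP1 (7.23-fold), OHP2 (3.16-fold), SEP1 (3.43-fold) and SEP2 (2.90-fold) also rose, so that all 6 measured members were higher, with a median of 2.31.

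Nuclear genes for plastid transcription rose in 6 of 6 measured cases. SIG5 encodes a sigma factor that directs the plastid RNA polymerase to light-responsive promoters such as that of psbD. It had 964 and 890 at 2 h, against 23.7, 24.6 and 23.9 in the dark. This 38.5-fold rise (5.27 ± 0.10) had the smallest adjusted p of the table (1.02e-14). The other sigma factors rose less, with 5.30-fold for SIG1, 2.72-fold for SIG3, 1.74-fold for SIG6 and 1.65-fold for SIG2. PTAC2, a component of the plastid transcription complex, rose 1.49-fold.

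Of 18 measured genes of tetrapyrrole and chlorophyll synthesis, 15 rose, 12 of them at least 2-fold, and 3 fell. Tested with every probe set of the array, 15 rose and 2 fell. HEMA1, glutamyl-tRNA reductase, which opens the pathway, had 767 and 776 at 2 h, against 148, 155 and 145 in the dark (5.17-fold). CHLH, the porphyrin-binding subunit of magnesium chelatase, had 4015 and 3841 at 2 h, against 349, 383 and 383 in the dark, a 10.6-fold rise (3.40 ± 0.33). GUN4, which activates that chelatase, rose 8.13-fold, to 2317 and 2246 at 2 h. The chelatase ATPase subunits CHLI1 and CHLI2 rose 3.61-fold and 2.17-fold, CRD1 of the cyclase step 3.09-fold, and CAO, which makes chlorophyll b, 3.73-fold. On the heme branch, the ferrochelatases FC1 and FC2 rose 4.24-fold and 2.98-fold.

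The 3 protochlorophyllide oxidoreductases, which carry out the light-dependent step, diverged. PORA, the enzyme stored in etioplasts, had 160 and 152 at 2 h, against 905, 832 and 858 in the dark, and fell 5.54-fold (-2.47 ± 0.30, adjusted p = 2.11e-06). PORB had 518 and 497 at 2 h, against 1358, 1292 and 1308 in the dark, and fell 2.60-fold. PORC, the isoform known from illuminated tissue, had 364 and 396 at 2 h, against 59.8, 50.6 and 53.5 in the dark, and rose 6.96-fold (2.80 ± 0.42). No array of the light group overlapped the dark group for any of the 3 genes, which held for 93.2% of all probe sets too. FLU, which holds back precursor synthesis in darkness, differed by -0.31, a call that was lost without replicate 2 at 2 h (-0.20), without dark replicate 1 (-0.29) or without dark replicate 2 (-0.28).

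All 14 measured light-harvesting antenna genes were higher at 2 h, 9 of them at least 2-fold, with a median log2 difference of 2.02. After median centring 13 of the 14 passed as higher. LHCB2.3, of the main photosystem II antenna, had 1703 and 1737 at 2 h, against 140, 169 and 176 in the dark (10.7-fold). LHCA1, of the photosystem I antenna, had 4965 and 4959 at 2 h, against 566, 643 and 580 in the dark (8.33-fold). PSBS, the sensor of energy-dependent quenching, rose 6.46-fold and LHCB7 7.25-fold. The CP29 genes changed least in this list. LHCB4.2 rose 1.47-fold, while the call of LHCB4.1 (0.35) was lost without replicate 1 at 2 h (0.30) and that of LHCB4.3 (0.47) without replicate 2 (0.26).

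Nuclear genes of the photosystems and electron transport rose in 25 of 25 measured cases, 21 at least 2-fold, with a median of 1.37 and a range of 0.59 to 3.03. PSAH2 of photosystem I had 4311 and 4888 at 2 h, against 553, 565 and 563 in the dark, and rose 8.19-fold. ATPD, the delta subunit of the plastid ATP synthase, rose 6.02-fold, and PSAK and PSAO of photosystem I rose 4.20-fold and 3.95-fold. Gene pairs that encode the same subunit differed in size of rise. PSBO2 of the oxygen-evolving complex rose 4.23-fold and PSBO1 1.60-fold, and PSAH1 rose 1.75-fold beside 8.19-fold for PSAH2. Probe sets of close paralogs may share signal.

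In the Calvin-Benson cycle 12 of 13 measured genes rose and 1 fell (median 1.79). The plastid aldolase FBA1 had 1251 and 1537 at 2 h, against 119, 126 and 120 in the dark, and rose 11.4-fold. CP12-2, which assembles the inhibited complex of GAPDH and phosphoribulokinase, rose 6.63-fold, whereas its relative CP12-3 was the gene that fell, with 173 and 173 at 2 h and 276 to 297 in the dark. GAPB rose 4.85-fold, Rubisco activase (RCA) 4.17-fold and SBPASE 3.99-fold. In photorespiration, 5 of 6 rose. The catalase gene CAT2 was 1 of these (0.28, adjusted p = 0.0306). Its call was lost, leaving 4 of 6, after quantile normalization, after median centring, with the replicate block, over the whole value table, and without dark replicate 1 (0.26), dark replicate 3 (0.25) or replicate 1 at 2 h (0.14). GLDP1, the P protein of glycine decarboxylase, had 3666 and 3677 at 2 h, against 425, 359 and 365 in the dark (9.62-fold). SHM1, the mitochondrial serine hydroxymethyltransferase, rose 4.71-fold, while glycerate kinase (GLYK) fell 1.97-fold.

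In the assimilation of nitrate and sulfate 6 of 7 genes rose. The APS reductases, which reduce activated sulfate, had the largest changes. APR3 had 1217 and 1069 at 2 h, against 72.3, 46.5 and 63.3 in the dark (19.1-fold, 4.26 ± 0.18). APR1 had 406 and 389 at 2 h, against 30.9, 17.9 and 28.2 in the dark (15.9-fold), and APR2 rose 8.24-fold. The nitrate reductase NIA2 rose 3.21-fold and plastid glutamine synthetase GS2 2.01-fold. The nitrate transporter NRT1.1 fell 1.47-fold.

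Carotenoid genes rose in 12 of 12 measured cases, 6 at least 2-fold (median 1.17). PSY, phytoene synthase, which controls entry into the pathway, had 1274 and 1131 at 2 h, against 187, 170 and 164 in the dark (6.92-fold). Of the xanthophyll genes, zeaxanthin epoxidase (ZEP) rose 5.40-fold and the beta-carotene hydroxylases BCH1 and BCH2 2.83-fold and 4.98-fold. The phytoene desaturase PDS3 rose 1.43-fold. Flavonoid genes rose in 14 of 14 measured cases, 9 at least 2-fold (median 1.06), and 13 passed without replicate 2 at 2 h. F3H, flavanone 3-hydroxylase, had 906 and 1053 at 2 h, against 39, 16.8 and 22.1 in the dark, and rose 40.1-fold (5.32 ± 0.42). Chalcone synthase (TT4) had 449 and 608 at 2 h, against 85.7, 54.7 and 100 in the dark (6.72-fold, adjusted p = 0.000151). The flavonol glucosyltransferase UGT78D2 rose 13.7-fold, to 499 and 500 at 2 h, and MYB12, an activator of flavonol genes, 2.40-fold. Replicate 1 at 2 h lay below replicate 2 for 13 of these 14 flavonoid genes, with a median difference of -0.26, and its part in the result was not tested.

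Of 10 measured genes of dark growth and shade, 9 fell, 8 of them by at least 2-fold, with a median of -1.91, and PIF6 differed by -0.31 and did not pass. HB2 (ATHB-2), the homeodomain factor of shade avoidance, had 46.8 and 44 at 2 h, against 569, 573 and 654 in the dark, and fell 13.2-fold (-3.72 ± 0.11, adjusted p = 1.79e-12). Its relatives HAT2, HAT3 and HB4 fell 4.18-fold, 3.38-fold and 4.82-fold, HB4 with a 2 h mean among the dimmest 5%. PAR1, a shade-induced repressor, had 62.8 and 56.9 at 2 h, against 378, 408 and 358 in the dark (6.37-fold lower). HLS1, required for the apical hook, fell 2.84-fold, and ST2A, a sulfotransferase gene of shade growth, fell 4.34-fold. YUC8, an enzyme of auxin synthesis, fell 1.73-fold.

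Auxin-response genes fell in 14 and rose in 5 of 20 measured cases, with a median of -0.54. GH3.3, an auxin-conjugating enzyme, had 42.1 and 36.1 at 2 h, against 375, 479 and 580 in the dark, and fell 12.1-fold (-3.59 ± 0.15). IAA29, an Aux/IAA repressor induced in shade, had 46.0 and 58.8 at 2 h, against 444, 453 and 378 in the dark (8.15-fold lower). IAA19 fell 5.30-fold, to 344 and 446 at 2 h, against 1994 to 2202 in the dark, and IAA6 fell 4.20-fold. Other members of the same 2 families rose. IAA28 had 280 and 334 at 2 h, against 73.5, 66.2 and 64.2 in the dark (4.50-fold higher), and GH3.6 rose 3.19-fold. SAUR genes, small auxin-induced genes many of which promote cell expansion, were gathered after their values had been seen, by RefSeq symbol or synonym, and are a description only. Of 35 measured SAUR genes, 25 were lower, 23 of them at least 2-fold, 7 were higher and 3 did not pass, with a median of -1.55. AT4G13790 (SAUR25) had the largest fall of the table, with 10.3 and 15.6 at 2 h, against 279, 390 and 322 in the dark (-4.69 ± 0.21), a size that is uncertain because the 2 h mean lies among the dimmest 5% of probe sets.

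Of 14 measured gibberellin genes 10 fell and 4 rose. Without dark replicate 2 or 3 or without replicate 1 at 2 h 9 fell and 4 rose, and without replicate 2 at 2 h 9 fell and 3 rose. GA2OX1, a catabolic 2-oxidase, had 338 and 414 at 2 h, against 23, 24.8 and 24.1 in the dark, and rose 15.6-fold (3.96 ± 0.11, adjusted p = 8.48e-13). GA3OX1, which makes bioactive gibberellin, had 37.5 and 51.1 at 2 h, against 215, 213 and 181 in the dark (4.62-fold lower), and the 20-oxidase GA20OX1 fell 3.77-fold. GA3OX2 rose 2.21-fold. The DELLA repressor genes GAI and RGA1 fell, GAI to 125 and 137 at 2 h, against 570, 654 and 599 in the dark (4.64-fold), and RGA1 1.92-fold. The receptor gene GID1A fell 1.92-fold as well.

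In the brassinosteroid list 4 of 5 genes fell. The count was 3 without dark replicate 3 and at an adjusted p under 0.01 (limma). The biosynthetic genes DWF4 and CPD fell 1.68-fold and 2.05-fold. BAS1, which inactivates brassinosteroids, had 49.8 and 72.7 at 2 h, against 425, 451 and 437 in the dark (7.27-fold lower). BR6OX2 was the gene that rose, by 0.56. PRE1, an atypical HLH gene that promotes elongation downstream of gibberellin and brassinosteroid, had 14.1 and 21.3 at 2 h, against 157, 176 and 137 in the dark (-3.17 ± 0.18), with a 2 h mean among the dimmest 5%. The 4 measured type-A response regulators, early targets and inhibitors of cytokinin signalling, all rose by less than 2-fold, from 0.57 for ARR16 to 0.90 for ARR9.

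Expansins and XTHs, which loosen and remodel the cell wall, fell in 9 and rose in 6 of 16 cases. These counts are near the shares of 49.0% lower and 40.5% higher over all probe sets. XTH15 had 1495 and 1161 at 2 h, against 6660, 6822 and 6906 in the dark, and fell 5.16-fold. EXPA8 (3.69-fold), EXPA11 (3.08-fold) and EXPA4 (2.87-fold) fell too. XTH18 had 2318 and 2200 at 2 h, against 491, 460 and 502 in the dark (4.67-fold higher), and XTH22, known as a touch-induced gene, rose 4.19-fold. Light and dark arrays did not overlap for 15 of the 16 genes, near the share of 93.2% over all probe sets.

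Clock genes rose in 10 and fell in 5 of 15 measured cases. Without dark replicate 1, and over the whole value table, 10 rose and 4 fell. The morning genes CCA1 and LHY rose, LHY to 728 and 788 at 2 h, against 289, 239 and 236 in the dark (2.99-fold), and CCA1 3.21-fold. ELF4, a member of the evening complex, had 185 and 199 at 2 h, against 35.7, 28.6 and 31.3 in the dark (6.04-fold). LNK1 rose 4.44-fold and GI 2.24-fold. COR27 and COR28, light-regulated clock components, fell 2.89-fold and 2.04-fold.

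All 23 measured heat shock genes were higher at 2 h, 18 of them at least 2-fold, and their median log2 difference of 3.42 was the highest of the lists. HSP17.6A, a small heat shock protein of class II, had 1213 and 860 at 2 h, against 24.2, 24.2 and 22.2 in the dark, and rose 43.4-fold (5.44 ± 0.20). HSFA2, a heat-inducible activator of these genes, had 229 and 145 at 2 h, against 12.8, 13.5 and 14.2 in the dark (13.5-fold, with a dark mean among the dimmest 5%). The chaperones HSP101, HSP90.1 and HSP70B rose 13-fold, 13.1-fold and 12.1-fold. The constitutive HSP70-1 rose 1.41-fold. No light array overlapped a dark array for any of the 23 genes. The same held for 93.2% of all probe sets.

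The 2 arrays at 2 h differed from each other in this list. Replicate 1 was above replicate 2 for 22 of 23 heat shock genes, with a median log2 difference of 0.59, and BAG6, a co-chaperone gene, had 407 on replicate 1 and 155 on replicate 2. Over all probe sets the same median was 0.01. The list median was 2.99 without replicate 1 at 2 h and 3.75 without replicate 2, and 23 genes passed either way. The part of the difference between the 2 arrays in the result was not tested.

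**Figure D3:**
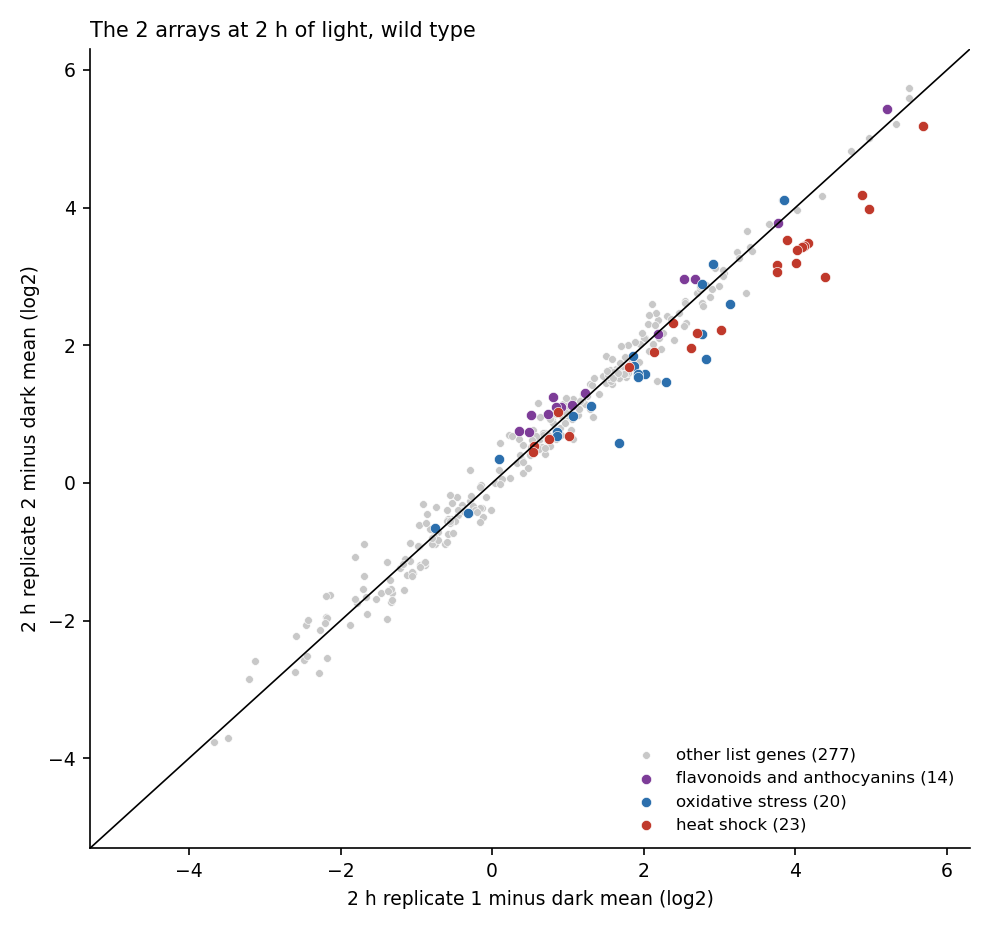
Log2 intensity of each list gene on replicate 1 (x axis) and replicate 2 (y axis) at 2 h of light, each minus the dark mean, in wild type. The line marks equality, and numbers of genes are in brackets. Heat shock genes (red) lie under the line in 22 of 23 cases, and flavonoid genes (purple) lie above it in 13 of 14.

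Oxidative stress genes and stress transcription factors rose in 17 of 20 measured cases, 15 at least 2-fold, and fell in 2 (median 1.77). CYP81D8, a cytochrome P450 of general stress responses, had 408 and 486 at 2 h, against 29.2, 25.2 and 30.5 in the dark (15.8-fold). ZAT12, a zinc-finger factor of oxidative and light stress, had 1965 and 1350 at 2 h, against 209, 213 and 250 in the dark (7.30-fold). AOX1A, the mitochondrial alternative oxidase, rose 7.12-fold. ERF5, ERF6 and ERF11 rose 2.02-fold, 3.38-fold and 3.58-fold, and WRKY33 3.46-fold. The cytosolic peroxidase APX1 rose 1.70-fold, to 5233 and 4646 at 2 h, while the catalases CAT1 and CAT3 fell 1.63-fold and 1.29-fold. Replicate 1 at 2 h was above replicate 2 for 15 of these 20 genes, and the list median was 1.57 without replicate 1 and 1.91 without replicate 2.

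Starvation genes fell in 20 of 22 measured cases, 13 at least 2-fold, with a median of -1.10, and 1 rose. These genes are switched on when carbon runs short and many act in amino acid breakdown. GDH1, glutamate dehydrogenase, had 224 and 197 at 2 h, against 832, 821 and 812 in the dark (3.91-fold lower). DIN3 and DIN4, subunits of branched-chain keto acid dehydrogenase, fell 3.38-fold and 3.43-fold, and BCAT2 3.21-fold. ASN1 (DIN6), the dark-induced asparagine synthetase, had 2413 and 1833 at 2 h, against 5220, 5620 and 5392 in the dark (2.57-fold lower). ATG8E of autophagy differed by -0.15 and did not pass. DIN9, a mannose-6-phosphate isomerase gene, was the one that rose, 1.57-fold.

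In the abscisic acid and dehydration list 10 of 12 genes rose and the other 2 did not pass, with a median of 1.07. The count was 8 after median centring and without replicate 2 at 2 h, and 9 after quantile normalization, over the whole value table, and without dark replicate 2, dark replicate 3 or replicate 1 at 2 h. The transcription factor gene ABF4 (0.37) was lost in each of these, the dehydrin COR47 (0.31) also after centring (0.18), and RD22 (0.89) also without replicate 2 at 2 h (0.61). CYP707A2, which breaks down abscisic acid, had 58.5 and 49.8 at 2 h, against 18.1, 16.2 and 17.3 in the dark (3.14-fold). RD29A rose 2.88-fold and the phosphatase genes HAB1 and ABI1, which restrain the hormone response, 2.26-fold and 1.99-fold. In fatty acid breakdown and the glyoxylate cycle 7 of 10 genes fell and 3 rose, none by 2-fold, with PCK1, which starts gluconeogenesis from that oil, at -0.76 and the acyl-CoA synthetase LACS7 at 0.70.

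Of 5 measured genes of histone lysine methylation, JMJ30 fell 2.25-fold, with 104 and 88.6 at 2 h and 203 to 237 in the dark, and LDL1 differed by -0.32, a call lost without replicate 2 at 2 h (-0.24). JMJ17 itself had no probe set of 1 locus in the table and is not analysed here. Few markers of other cell states were in the table. The oleosin OLEO2, 1 of 6 seed storage genes looked for, differed by -0.36 and did not pass. Of 10 root markers 4 were measured, of which 2 were lower, 1 was higher and 1 did not pass. The root patterning gene SHR differed by -0.49 (adjusted p = 0.000425) and the auxin efflux carrier gene PIN2 by -0.37 (adjusted p = 0.00492), the second of these calls being lost without replicate 2 at 2 h (-0.30). The peroxidase gene RCI3 was higher by 0.35 (adjusted p = 0.00836), a call lost without replicate 2 at 2 h (0.11), after quantile normalization (0.26) and after median centring (0.22). SCR, also a root patterning gene, differed by 0.14 and did not pass (adjusted p = 0.0919). The mitotic kinase CDKB2;1, 1 of 9 markers of dividing cells, fell by 0.41 on the log2 scale.

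The 20 largest rises and 20 largest falls include genes outside the lists. AT3G56290, with no symbol in the sources used here, had 1431 and 1451 at 2 h, against 37.4, 28 and 30.3 in the dark (5.51 ± 0.16). FADA (FAD4), the desaturase of plastid phosphatidylglycerol, had 502 and 494 at 2 h, against 9.18, 12.6 and 12.7 in the dark (5.45 ± 0.35). The cis-prenyltransferase cPT4 had 638 and 548 at 2 h, against 12.5, 12.6 and 15.7 in the dark (5.45 ± 0.17). The dark means of these last 2 genes are among the dimmest 5% of probe sets. ABCI20 and ABCI21, soluble ABC proteins, rose 28.6-fold and 37.8-fold, the chloroplast thioredoxin CDSP32 26.5-fold and the methionine sulfoxide reductase MSRB6 22.3-fold. Among the falls, ASPGB1, an asparaginase, had 163 and 150 at 2 h, against 1319, 1227 and 1267 in the dark (8.13-fold lower). The beta-expansin EXPB1 fell 7.31-fold and the endoglucanase gene GH9B13 6.32-fold. SAUR genes made up 5 of the 20 largest falls.

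**Figure D4:**
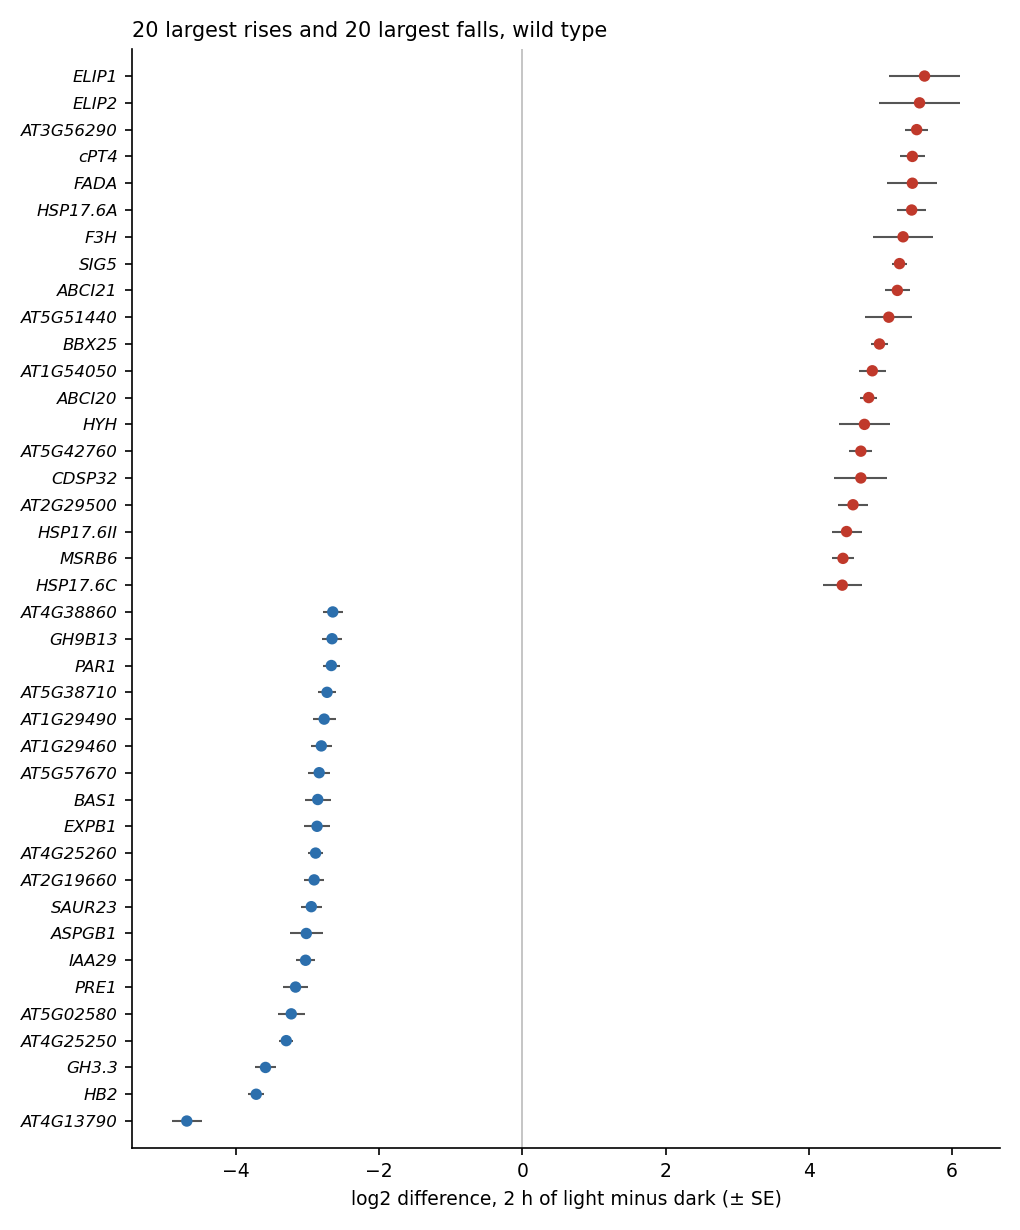
The 20 largest rises (red) and 20 largest falls (blue) among passing probe sets of 1 locus in wild type, as the log2 difference between 2 h of light and dark, with bars of 1 SE (limma). The rises run up to 5.62 for ELIP1 and the falls down to -4.69 for AT4G13790.

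To see which changes belonged to the first 2 h, wild type at 4 h of light was set against 2 h. The 2 h arrays enter both comparisons, so values are only placed side by side. Of all probe sets 47.2% passed, with 1399 (20.4%) higher at 4 h than at 2 h and 1836 (26.8%) lower. Of the 20 light-signalling genes 15 were lower at 4 h than at 2 h, as were 17 of 23 heat shock genes and 17 of 20 oxidative stress genes. Of 22 starvation genes 18 were higher at 4 h. The photosystem list differed, with 9 of 25 genes higher at 4 h and the others not passing.

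Single genes serve as examples of 2 h levels that had changed by 4 h. LHY had 289, 239 and 236 in the dark, 728 and 788 at 2 h, 52.8 and 52.7 at 4 h and 52.7 and 52.7 at 8 h. It was therefore above its dark level at 2 h and below it later (4 h minus 2 h, -3.84 ± 0.10). APR1 had 39.8 and 30.9 at 4 h, against 406 and 389 at 2 h (-3.50 ± 0.21), and ELIP1 269 and 422 at 4 h, against 3476 and 4108 at 2 h (-3.49 ± 0.55). HY5 had 232 and 241 at 4 h, against 734 and 952 at 2 h (-1.82 ± 0.15). In the opposite direction, GA20OX1 had 168 and 261 at 4 h, against 19.5 and 28.7 at 2 h (3.15 ± 0.21), and stood at 15.5 and 15.7 at 8 h. BAS1 had 354 and 491 at 4 h, against 49.8 and 72.7 at 2 h (2.79 ± 0.20). The largest changes between 2 and 4 h were sought among genes that passed in both comparisons. For genes named by that rule, 2 h levels apart from both the dark and the 4 h levels were part of the choice.

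**Figure D5:**
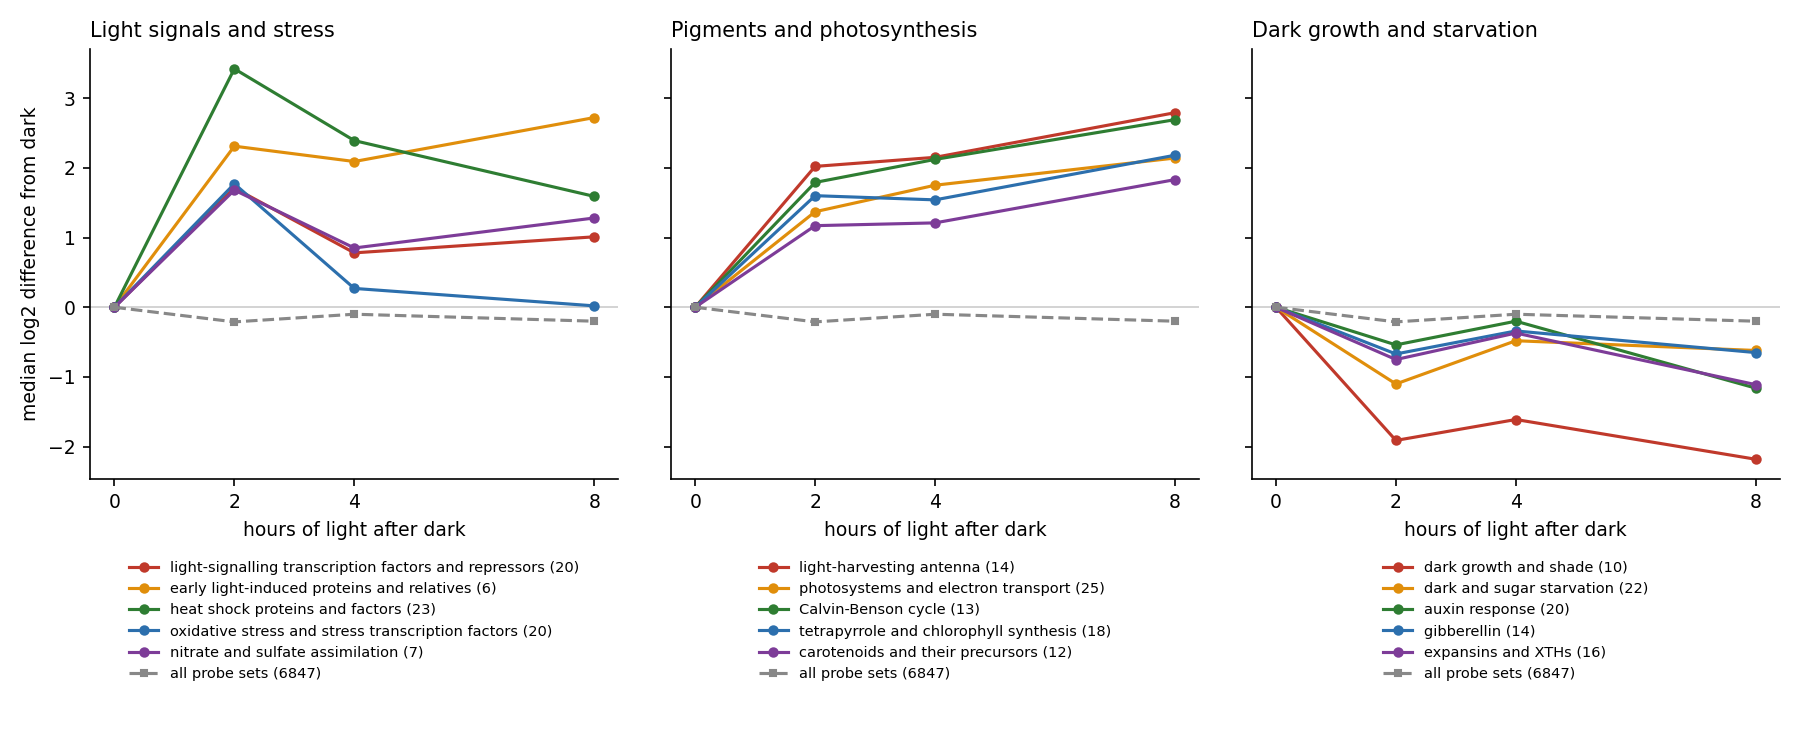
Median log2 difference from dark of 15 gene lists in wild type at 0, 2, 4 and 8 h of light, in 3 panels, with all 6847 probe sets as a dashed grey line. Heat shock genes peak at 2 h (3.42) and stand at 1.59 at 8 h, while antenna genes stand at 2.02 at 2 h and 2.79 at 8 h.

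Whether jmj17-1 responded differently to the first 2 h was tested as the response of jmj17-1 minus that of wild type. Of 6847 probe sets 7 passed (0.102%, limma), 6 of them negative, and 945 (13.8%) had an unadjusted p under 0.05. All listed probe sets differed between 2 h and dark in jmj17-1 before adjustment, and those arrays enter this test, so these p-values may not be independent of how the list was made. ACA2, an alpha carbonic anhydrase gene, had the largest interaction (-1.91 ± 0.24, adjusted p = 0.00529). In jmj17-1 it had 15.8 and 15.3 at 2 h, against 12.3, 12.8 and 12.8 in the dark. In wild type it had 58.9 and 61.1 at 2 h, against 15.8, 11 and 12.5 in the dark. The size rests on levels among the dimmest 5% in the dark. WRKY40, a stress-responsive transcription factor, rose less in jmj17-1 (0.88) than in wild type (1.80), with an interaction of -0.93 ± 0.16 (adjusted p = 0.0411). The count of 7 moved between 0 and 44 when 1 array was left out. It was 44 without wild-type replicate 2 at 2 h, 29 without jmj17-1 dark replicate 2, 12 without jmj17-1 dark replicate 1, 9 without jmj17-1 dark replicate 3, and 4 or fewer without each of the other arrays of the 4 groups. List medians were 2.67 in jmj17-1 and 3.42 in wild type for heat shock genes, and 1.91 in jmj17-1 and 2.02 in wild type for antenna genes.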

How the data were processed

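RNA of whole seedlings was measured on 18 ATH1 arrays. The submitters' processing notes name GCOS 1.4 for scanning. The authors deposited RMA intensity on a linear scale for 6847 of 22810 probe sets (per the file headers, RMA with quantile normalization and a list filter on a moderated t-statistic, whose comparison the headers do not name). The deposited second file holds log2 values centred per probe set. Its columns were matched by equal values and served as an alternative. No array background values were at hand.

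Log2 intensities were fitted with limma 3.58.1 in R 4.3.3 (lmFit, contrasts.fit, eBayes), 1 mean for each of the 8 groups. The fit had 10 residual and 4.913 prior degrees of freedom, with a prior SD of 0.1144. A probe set passed at a Benjamini-Hochberg adjusted p under 0.05. Tables and figures used Python 3.11.15, pandas 2.3.3 and matplotlib 3.10.9. On simulated data with 200 changed probe sets among 6847, 52 of 66 changes of 0.5 (log2), 67 of 67 of 1 and 67 of 67 of 2 were recovered, with 9 false calls. In the real data 89.5% of probe sets passed, a far larger share. The adjusted threshold depends on that share, so the simulated rates do not carry over.

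The members and the 28 gene lists (532 loci, 334 measured) were chosen with earlier results of these data known. Each gene is shown by its brightest probe set of 1 locus, with names from the authors' table and from RefSeq (TAIR10.1). Named genes are list members, the 20 largest rises and 20 largest falls, the largest interactions, the 5 largest rises and falls between 2 and 4 h, and the 10 smallest adjusted p-values. The labels name no batch, so no block was used in the main fit. Deviations of same-numbered wild-type dark and 2 h arrays correlated at 0.019 to 0.0238. Between other groups of the fit these correlations ran from -0.408 to 0.466. Alternatives were scaling, filters, weights, the arrays fitted, a replicate block and leaving out each array. Promoter motifs were not examined, as no promoter sequence was at hand.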

Additional observations from a re-analysis of the deposited data

Results flagged for a closer look

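The response to 2 h of light differed between genotypes for 5 named genes by the interaction test (jmj17-1 minus wild type, limma). ACA2 differed by -1.91 and passed in 16 of 17 alternatives, with adjusted p between 0.0019 and 0.0679. AT1G35210 differed by -0.99 and passed in 10 of 17 (0.0137 to 0.11), with 14.1 and 11.3 at 2 h in jmj17-1 and 24.1 and 29.3 at 2 h in wild type. These levels are near the lower end of the intensity range, so the size is uncertain. WRKY40 differed by -0.93 and passed in 6 of 18 (0.0123 to 0.154). AT1G33590 differed by -0.65 and passed in 6 of 18 (0.0232 to 0.171). IRT3, an iron and zinc transporter gene, differed by 0.64 and passed in 10 of 18 (0.0232 to 0.154), with 347 and 338 at 2 h in jmj17-1 and 272 and 265 at 2 h in wild type. For AT1G35210 and IRT3 the 2 h levels alone do not show a differing response, which also rests on the dark levels.

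Outside the deposited list, 50 of 15963 probe sets were at least 2-fold higher or lower and passed in wild type at 2 h of light, 24 higher and 26 lower. They belong to data that the comparisons above do not use, and they are not named because the second file was used only as an alternative.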

How the results depend on the processing

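Of 368 named or listed genes 355 passed. Only 194 genes were followed through the alternatives. Of these, 11 lost the threshold under at least 1 alternative, and the sign turned for 0. With the replicate block, 2777 probe sets were higher and 3320 lower, 5 interactions passed, and no list count moved by over 1.5 times. Arrays were left out 1 at a time, and only arrays of the groups in the comparison concerned. For wild type at 2 h against dark, jmj17-1 dark replicate 2 was left out as well, and no other mutant array. Leaving out each array gave 2651 to 2792 higher, 2938 to 3406 lower, 1748 to 1802 at least 2-fold, 2506 to 2903 between 2 and 4 h, and 0 to 44 interactions. The 0 came without jmj17-1 replicate 2 at 2 h, where 660 had an unadjusted p under 0.05 (limma). Interactions numbered 1 at an adjusted p under 0.01, 1 with only the arrays compared, 4 after quantile normalization, 2 after centring, 19 under array weights and 2 over the whole array. Over the whole array 4208 were higher at 2 h and 5132 differed between 2 and 4 h. Without the dimmest 40 percent of probe sets, fewer were tested, and 1698 were higher, 2165 lower, 1099 at least 2-fold and 2045 different between 2 and 4 h. In that setting 8 flavonoid, 2 cytokinin, 15 heat shock and 5 oxidative stress genes were higher, 5 dark growth and 8 auxin genes lower, 1 gibberellin gene higher and 5 lower, 1 histone gene and 1 root gene lower. Leaving out each array gave 1 to 3 histone genes lower, and without replicate 2 at 2 h 0 root genes were higher and 1 lower. The root count was also 0 higher after quantile normalization or centring, where 1 (RCI3) passed as deposited (limma). PHYC, PIF6 and ATG8E, which did not pass as deposited, passed as lower after either rescaling of the listed probe sets alone. That rescaling lowered the median difference. For other results moved by a setting the cause was not tested. Dim probe sets limit fold sizes.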

Other observations

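The authors' table gives a date in place of the symbol for 5 list genes, APR1, APR2, APR3, SEP1 and SEP2, which were named here through their locus. A search of that table by symbol would miss them, among them APR3 with a 19.1-fold rise.

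Of the 5 genes with the largest rises between 2 and 4 h, AT5G44680 had 353 and 458 at 4 h, against 49.9 and 71.7 at 2 h, and SAUR25 (AT4G13790) 69.4 and 79.9 at 4 h, against 10.3 and 15.6 at 2 h. SAUR25 then stood at 11.1 and 8.44 at 8 h. Of the 35 measured SAUR genes 20 were higher at 4 h than at 2 h and 5 lower.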
